A study of Homo sapiens with 6 samples.

Results

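The human Y RNAs HY1, HY3, HY4 and HY5 were described across 6 RNA libraries of HEK293T cells, a human embryonic kidney line. The members are all loci whose repeat name, the part of the identifier before its copy and running numbers, is HY1, HY3, HY4 or HY5. They number 109 of the 433837 repeat loci listed, under 4 of 5230 repeat names, with 44 loci each for HY1 and HY3, 19 for HY4 and 2 for HY5. For each name, the locus with the most reads over all 6 libraries is called its leading locus, and the remaining loci are called its other copies. All cells were wild-type HEK293T transfected with a chimeric, chemically modified antisense oligonucleotide (ASO) at 100 nM with a lipid reagent. In the 3 control libraries the ASO was the one against GFP, and in the 3 U7 ASO libraries it was directed against U7 small nuclear RNA, which guides the cleavage of histone transcripts at their 3′ ends. The design text describes the 3 libraries of a group as biological replicates.

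Y RNAs are short noncoding RNAs made by RNA polymerase III. Both ends of the molecule pair into a stem that is bound by the Ro60 protein, which takes part in the quality control of misfolded RNAs, and the run of uridines at the 3′ end is bound by the La protein. Y RNAs have also been linked to the start of DNA replication in vertebrate cells. The human genome holds many copies of them that were inserted through reverse transcription and are regarded as pseudogenes. The comparison asks whether reads of the Y RNAs differed between cells given the U7 ASO and cells given the control ASO.

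RefSeq places the genes of these RNAs on chromosome 7 of GRCh38 within one cluster. RNY5, the gene of the HY5 RNA, lies at chr7:148941488-148941571, RNY4 at chr7:148963315-148963410 and RNY1 at chr7:148987136-148987248, with lengths of 84, 96 and 113 bases. GENCODE 29 gives the same coordinates for RNY4 on the plus strand and for RNY1 on the minus strand. The long noncoding RNA gene GHET1 starts 279 bases beyond RNY1 on the plus strand, so these annotated genes do not overlap. The transcripts of RNY1 and RNY4 in GENCODE 29 are shown because they share their ends while differing in between, which bears on how well reads of 1 Y RNA can be told from those of another. Capitals mark the start that both share, of 11 bases, and the run of T at the end.
RNY1: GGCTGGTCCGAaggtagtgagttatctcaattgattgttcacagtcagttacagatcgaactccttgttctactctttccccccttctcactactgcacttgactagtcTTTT
RNY4: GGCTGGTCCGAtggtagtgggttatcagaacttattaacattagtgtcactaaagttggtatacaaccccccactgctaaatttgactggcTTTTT

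In the fold of lowest predicted energy, base 1 paired with base 109 in RNY1, the last base before the run of T, and with base 92 in RNY4, where that run starts. Of the 11 shared bases, 8 were paired in RNY1 and 10 in RNY4, so the predicted folds place the shared start in the end stem. Over the whole length, RNY1 and RNY4 were 63.7% identical. The annotated pseudogenes are closer to their gene than these genes are to each other. The 16 pseudogenes of RNY1 were 76.5% to 91.2% identical to it (median 85.5%) and the 22 of RNY4 77.9% to 95.8% (median 90.1%). The share of 30-base windows that also occur in another annotated Y RNA transcript was 16.7% for RNY1 and 62.7% for RNY4, so RNY1 had the larger share of windows found in no other annotated Y RNA transcript, at 83.3% against 37.3%. The deposited identifiers give no coordinates, so the repeat loci were not matched to these genes or pseudogenes.

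The identifiers do carry a running number that increases down the tables, and by this number the 4 leading loci were neighbours. The leading loci were HY5_2406652, HY4_dup2_2406711, HY3_dup46_2406779 and HY1_dup17_2406786, all within 134 running numbers. The order of those of HY5, HY4 and HY1 is that of RNY5, RNY4 and RNY1 on the chromosome. The steps between the leading loci were 59, 68 and 7 running numbers. The starts of RNY5 and RNY4 are 21.8 kb apart and those of RNY4 and RNY1 23.8 kb. The leading loci were chosen by reads alone, but that of HY4 led with only 20 reads against 19, and HY5 had only 2 listed loci. Whether the shared order reflects a match to these genes was not tested.

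The libraries held between 1926892 and 2819540 reads in repeat loci, with 1926892 to 2025985 in the controls and 2089822 to 2819540 after the U7 ASO. These totals are not the sequencing depth. The targeted RNA could not be checked, since reads of U7-named loci, 16 in all, came to 10, 6 and 12 in control libraries and to 10, 4 and 6 in U7 ASO libraries. U7 ASO replicate 1 stood apart from the other 2 U7 ASO libraries in several Y RNA values below, and the main values of HY1 and HY3 are also given without it. It also had the largest share of reads in LTR12 and HERV9 elements, at 3.18% against 2.01% and 2.30% in U7 ASO replicates 2 and 3 and 0.213% to 0.266% in the controls. Its part in the Y RNA results was not tested beyond leaving it out. It was singled out by these same Y RNA values, so the fits without it are not separate support for a difference.

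HY1 carried nearly all Y RNA reads. It held 87194, 77689 and 95008 reads in control replicates 1, 2 and 3 and 100393, 62533 and 67623 in U7 ASO replicates 1, 2 and 3. These are 4.30%, 4.03% and 4.80% of the reads counted in repeat loci in the controls, and 4.80%, 2.66% and 2.40% with the U7 ASO. The groups overlapped, because U7 ASO replicate 1 was at the level of the controls while the other 2 U7 ASO libraries lay below every control. The 95% exact (Clopper-Pearson) intervals of these shares cover counting error only. They ran from 4.77% to 4.83% in U7 ASO replicate 1, from 2.64% to 2.68% in replicate 2 and from 2.38% to 2.42% in replicate 3. Within the U7 ASO group none of these overlapped another, and the 3 control intervals did not overlap each other either. At these read numbers, such a separation therefore does not set replicate 1 apart. The HY1 leading locus ranked 3rd by reads among all listed loci in each of the 6 libraries.

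Scaled by the trimmed mean of M values (TMM) and expressed as CPM, the counts of a name relative to all scaled counts of the library, HY1 was at 46684, 41693 and 45823 CPM in the controls and at 47199, 25706 and 24059 CPM with the U7 ASO. The group means were 44734 ± 2668 and 32321 ± 12911 CPM (mean ± SD, n = 3 each), and the U7 ASO mean was 72.3% of the control mean. The log2 fold change was −0.47 (SE 0.18, 95% interval −0.85 to −0.09), and it did not pass in edgeR's quasi-likelihood test adjusted over 2236 repeat names (adjusted p = 0.214, Benjamini-Hochberg). In this edgeR fit, U7 ASO replicate 1 was the only library whose omission gave a call. Without this replicate the log2 fold change was −0.84 (SE 0.09, adjusted p = 4.53e-07). As it was the U7 ASO library at the level of the controls, leaving it out was bound to enlarge the difference. Calls among all names grew as well, to 46 raised and 76 lowered, against 34 and 23 with all libraries. Without U7 ASO replicate 2 or 3 the log2 fold change of HY1 was −0.32 or −0.29 (adjusted p = 0.618 and 0.733). HY1 also passed with limma-voom (adjusted p = 0.0314, SE 0.15) and without a count filter (adjusted p = 0.0462, SE 0.14). Both SEs were smaller than the 0.18 above, and without the filter the log2 fold change was nearly the same, at −0.46. Over the 15 alternatives the adjusted p ran from 4.53e-07 to 0.733.

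HY3 was the other Y RNA with ample reads. It held 2293, 2102 and 2834 reads in control replicates 1, 2 and 3 and 2123, 1615 and 1645 with the U7 ASO. In CPM the controls were at 1228, 1128 and 1367 and the U7 ASO libraries at 998, 664 and 585. Every U7 ASO library lay below every control, with U7 ASO replicate 1 again the nearest to the controls. Such a separation downwards was seen for 10.2% of all tested names, so by itself it does not set HY3 apart. The means were 1241 ± 119.9 and 749 ± 219 CPM (mean ± SD, n = 3 each), a log2 fold change of −0.73 (SE 0.20, 95% interval −1.14 to −0.31). HY3 did not pass in edgeR, at an adjusted p of 0.0582. HY3 passed with upper-quartile scaling (adjusted p = 0.0411), DESeq2 (adjusted p = 0.0249), limma-voom (adjusted p = 0.0160), without a count filter (adjusted p = 0.0110) and without U7 ASO replicate 1 (log2 fold change −0.98, adjusted p = 0.000814). Over the 15 alternatives its adjusted p ran from 0.000814 to 0.401, and the log2 fold change was negative in all of them. Leaving out U7 ASO replicate 1, the U7 ASO library nearest to the controls, was bound to enlarge the difference. It also gave more lowered names in general, 76 against 23.

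**Figure D1:**
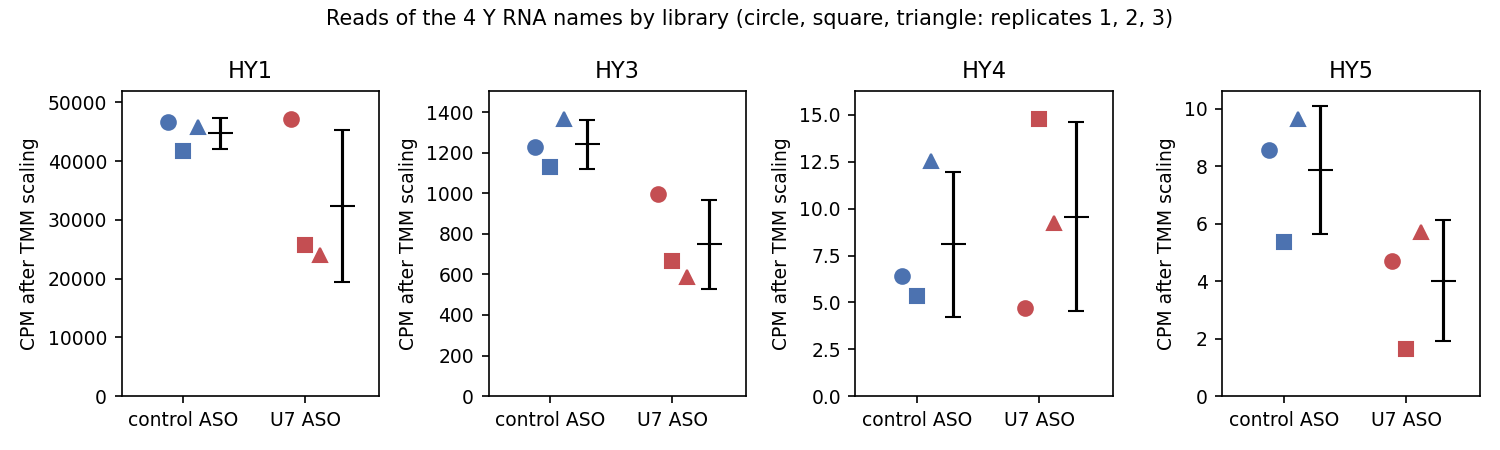
Each panel plots 1 Y RNA name, with CPM after TMM scaling on a linear axis from 0, the 3 control libraries in blue, the 3 U7 ASO libraries in red and the mean ± SD in black beside them. For HY1 the U7 ASO replicate 1 (circle, 47199 CPM) sits with the controls and the other 2 U7 ASO libraries are at 25706 and 24059 CPM, whereas for HY3 all 3 U7 ASO libraries lie below the controls.

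HY4 and HY5 had few reads. HY4 held 12, 10 and 26 reads in the controls and 10, 36 and 26 after the U7 ASO, and HY5 held 16, 10 and 20 and then 10, 4 and 16. The groups overlapped for both names. Their log2 fold changes were 0.24 for HY4 (95% interval −1.29 to 1.77, edgeR adjusted p = 0.924) and −0.96 for HY5 (95% interval −2.76 to 0.84, adjusted p = 0.699). Leaving out 1 library gave −0.20 to 0.71 for HY4 and −1.30 to −0.58 for HY5. With counts this low neither a change nor its absence could be resolved for these names.

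In sum over the 4 names, none passed in edgeR, beside a background of 2.55% of tested names that changed (1.03% lowered and 1.52% raised). At an unadjusted p under 0.05, HY1 and HY3 passed, as did 14.6% of all tested names. Limma-voom called both, and DESeq2 called HY3 and gave no adjusted p for HY4 or HY5. Among all names limma-voom called 35 raised and 41 lowered and DESeq2 46 and 38, against 34 and 23 in edgeR.

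**Figure D2:**
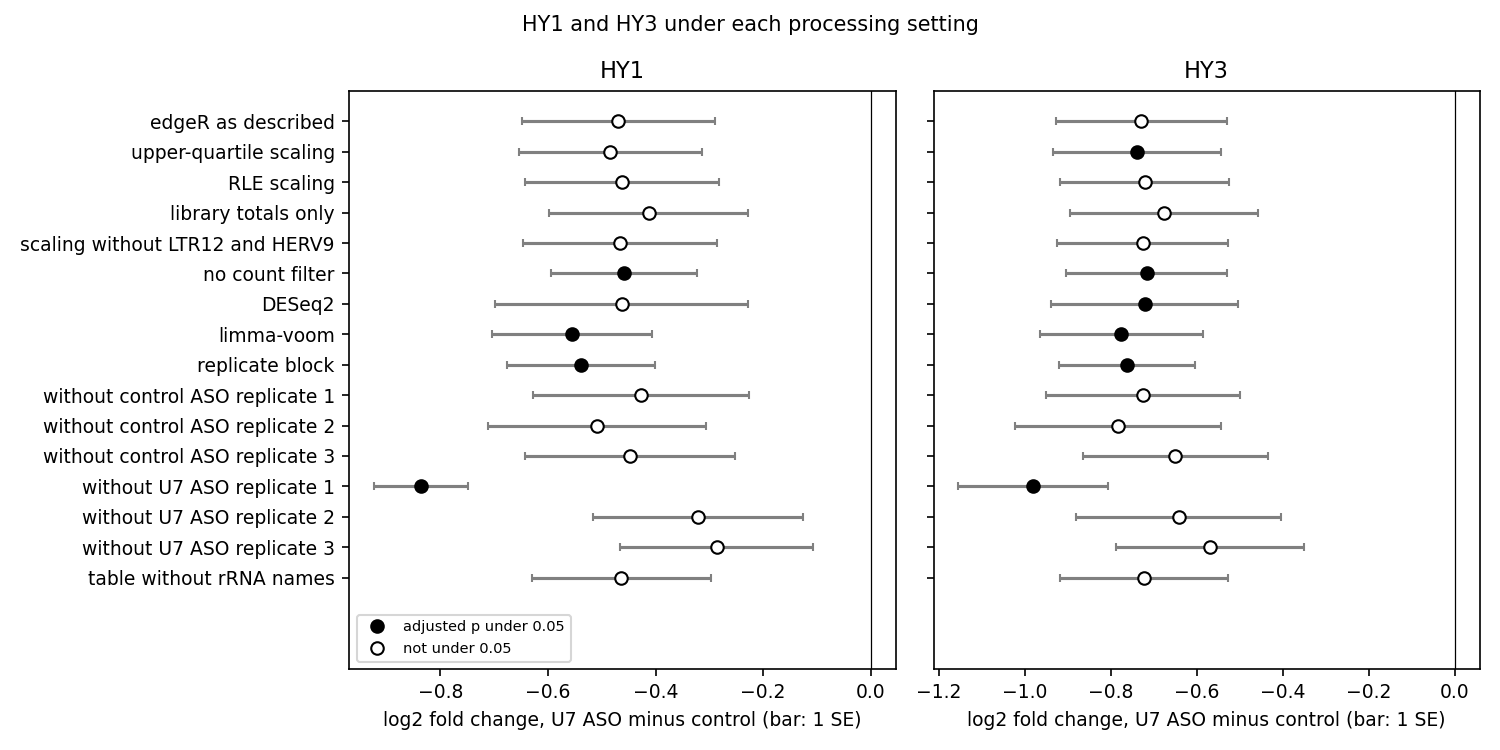
The log2 fold change of HY1 (left) and HY3 (right), U7 ASO minus control, is plotted for the test as described and for 15 alternatives, with bars of 1 SE and filled points where the adjusted p was under 0.05. All points lie left of 0, and leaving out U7 ASO replicate 1 moves HY1 from −0.47 to −0.84.

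The balance between Y RNAs was compared within libraries, where no scaling is needed. For each HY3 read there were 38.0, 37.0 and 33.5 HY1 reads in the controls and 47.3, 38.7 and 41.1 after the U7 ASO. The groups did not overlap, although the gap between U7 ASO replicate 2 and control replicate 1 was small. The log2 ratio was 5.17 ± 0.10 in the controls and 5.40 ± 0.15 after the U7 ASO (mean ± SD, n = 3 each, exact two-sided permutation p = 0.1, adjusted p = 0.48 over 6 pairs), and 0.1 is the smallest p that 3 libraries against 3 allow. The difference of 0.23 on the log2 scale was 0.14 without U7 ASO replicate 1. With the leading loci alone the log2 ratio was 5.42 ± 0.04 and 5.69 ± 0.12 (n = 3 each, exact permutation p = 0.1, adjusted p = 0.3 over 3 pairs). The other 5 pairs, each with HY4 or HY5, overlapped between the groups, with exact permutation p-values from 0.3 to 0.6. These ratios are of reads and not of molecules, since the length of each repeat locus is not in the files used here.

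**Figure D3:**
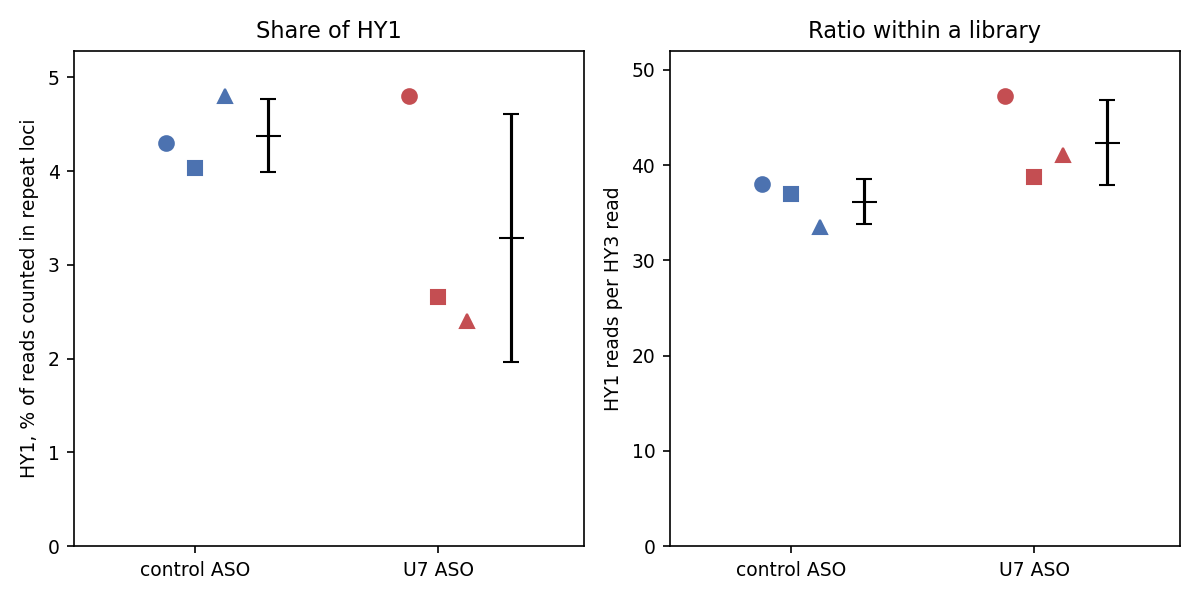
The left panel plots HY1 as a percentage of the reads counted in repeat loci and the right panel the HY1 reads per HY3 read, by library, with the mean ± SD of the plotted values in black and axes from 0. U7 ASO replicate 1 (red circle) is level with control replicate 3 on the left, at 4.80%, and has the highest value on the right, at 47.3 HY1 reads per HY3 read.

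The leading locus and the other copies were then separated. HY1_dup17_2406786 held 99.9% of the HY1 reads in each control library (99.91% ± 0.01, SD, n = 3) and 99.93% ± 0.03 with the U7 ASO (n = 3). The 43 other HY1 copies together held 93, 71 and 79 reads in the controls and 89, 24 and 57 after the U7 ASO. HY3 was less concentrated, with 86.3%, 85.6% and 80.7% of its reads at HY3_dup46_2406779 in the controls and 84.2%, 81.0% and 80.6% after the U7 ASO. The 43 other HY3 copies together held 315, 303 and 546 reads in the controls and 335, 307 and 319 after the U7 ASO. The share of the leading locus did not separate the groups for either name (exact permutation p = 0.3 for each, adjusted p = 0.4 over 4 names).

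The leading loci of HY1 and HY3 gave nearly the values of the names, with log2 fold changes of −0.47 (SE 0.18, edgeR adjusted p = 0.215) and −0.76 (SE 0.21, adjusted p = 0.0581). The HY3 leading locus had 1978, 1799 and 2288 reads in the controls and 1788, 1308 and 1326 after the U7 ASO. The other copies gave −0.81 for HY1 (SE 0.44, adjusted p = 0.426) and −0.58 for HY3 (SE 0.25, adjusted p = 0.269). Without U7 ASO replicate 1 the other HY1 copies were at −1.45 (adjusted p = 0.0621), without U7 ASO replicate 2 they were at −0.43, and without control replicate 3 the other HY3 copies were at −0.32. Thus 0 of the 6 rows that passed the count filter were called in edgeR, where 2.55% of all rows were. The HY3 leading locus was called with DESeq2 and with upper-quartile scaling, and both leading loci with limma-voom and in the edgeR fit of unfiltered counts. Among all rows DESeq2 called 48 raised and 41 lowered and limma-voom 35 and 41, against 34 and 23 in edgeR. Upper-quartile scaling gave 35 and 29, and unfiltered counts 40 and 42. Without U7 ASO replicate 1 both leading loci were called as well, at −0.83 for HY1 (edgeR adjusted p = 4.77e-07) and −1.03 for HY3 (adjusted p = 0.000593), whereas without U7 ASO replicate 2 or 3 neither was. Among all rows, 47 were raised and 74 lowered without U7 ASO replicate 1. As for the names, the values without this replicate follow from which library was left out and are not separate support. At an unadjusted p under 0.05, 3 of the 6 passed, beside 14.5% of all rows.

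HY4 had no dominant locus. HY4_dup2_2406711, with 20 reads over all libraries, led HY4_dup1_1911185, with 19, by 1 read. It held 8, 4 and 6 reads in the controls and 0, 0 and 2 after the U7 ASO, and did not pass the count filter. HY4_dup1_1911185 held 0, 0 and 2 reads in the controls and 0, 14 and 3 after the U7 ASO. The share of HY4 reads at the leading locus was 66.7%, 40.0% and 23.1% in the controls and 0%, 0% and 7.69% after the U7 ASO (exact permutation p = 0.1, adjusted p = 0.4), on 10 to 36 reads a library. A count of 0 in a library allows up to 3 expected reads. The lowest control held 4, a count with counting error of its own, so 0 and 4 are not clearly apart.

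HY5 reads in the controls came from HY5_2406652 alone, with 16, 10 and 20 reads. With the U7 ASO this locus held 2, 4 and 14 reads and HY5_4546847, the only other listed copy, held 8, 0 and 2. The log2 fold change of HY5_2406652 was −1.59 (SE 0.94, 95% interval −3.55 to 0.37, adjusted p = 0.459 in edgeR), and without U7 ASO replicate 3 it was −2.53 (adjusted p = 0.638). Counts this low left its direction unresolved.

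Most copies of Y RNAs had few reads in these libraries. Few reads need not mean little transcription, since reads of near-identical copies could be split or dropped. Of the 109 loci, 89 had 10 reads or fewer over all 6 libraries, and 8 had more than 50. Among the 43 other HY1 copies, 11 had a read in both groups, 17 in controls only and 15 in U7 ASO libraries only. For the 43 other HY3 copies these numbers were 12, 13 and 18. Across all repeats, reads fell on 96631 to 120658 listed loci per control library and on 118352 to 160749 per U7 ASO library. The corresponding split over all listed loci is not given here, so these numbers do not set the Y RNA copies apart. All listed loci were read in some library, so copies without reads are not among those counted.

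A few copies outside the cluster stood above this level. HY3_dup24_3105076 held 210, 224 and 382 reads in the controls and 192, 202 and 196 after the U7 ASO, and HY3_dup37_292102 held 58, 40 and 90 and then 102, 73 and 63. HY1_dup24_2106195 held 52, 30 and 46 reads in the controls and 44, 12 and 16 after the U7 ASO. For this copy too, replicate 1 was the highest of the U7 ASO group. Within 12 running numbers of these 3 loci, no other listed locus had more than 12 reads in a library. Both HY3 copies were above these neighbours in every library, though near HY3_dup24_3105076 only 1 other locus was listed. HY1_dup24_2106195, at 12 and 16 reads in U7 ASO replicates 2 and 3, was not clearly above its neighbours there. Where the reads of these copies arose was not tested. HY3_dup10_1915326 and HY3_dup12_4326873, with at most 28 and 24 reads in a library, were the remaining copies above 50 reads. Other listed loci within 12 running numbers of them reached 26 and 8 reads in a library.

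When all 14380 loci with enough reads were tested singly, 6 of the 109 Y RNA loci passed the count filter and 0 were called in edgeR, where 4.96% of all loci changed and 4.49% were raised. At an unadjusted p under 0.05, 1 of the 6 passed, beside 12.3% of all loci, and DESeq2 and limma-voom called none of them. The scaling of this table gave smaller differences. The log2 fold change was −0.28 for HY1_dup17_2406786 (SE 0.22, adjusted p = 0.788) and −0.56 for HY3_dup46_2406779 (SE 0.25, adjusted p = 0.364). In the table of names these loci stood at −0.47 and −0.76, so the size of the difference depended on which table set the scaling. For HY3_dup24_3105076, HY3_dup37_292102 and HY1_dup24_2106195 the log2 fold changes were −0.58, 0.25 and −0.92 (adjusted p = 0.512, 0.935 and 0.673). Leaving out 1 library gave −0.57 (without U7 ASO replicate 1) to −0.10 (without U7 ASO replicate 3) for HY1_dup17_2406786, −1.76 (without U7 ASO replicate 1) to −0.57 (without U7 ASO replicate 2) for HY1_dup24_2106195, −0.72 to −0.33 for HY3_dup24_3105076 and −0.017 to 0.53 for HY3_dup37_292102.

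Between the leading loci of HY5 and HY4 lay a copy of LTR12C, the long terminal repeat family that the series title asks about. It was singled out after its values were seen. LTR12C_dup123_2406671 held 10, 0 and 8 reads in the controls and 238, 195 and 234 after the U7 ASO. It was at 3.85 ± 3.42 CPM in the controls and 133 ± 15.5 CPM after the U7 ASO (mean ± SD, n = 3 each), and since these values led to its choice no test of it is given. The 3 loci listed next, A-rich_dup2938_2406672, L2c_dup6157_2406673 and AluSg_dup1980_2406674, had no reads in the controls. They held 20, 31 and 28, then 2, 14 and 10, then 16, 8 and 0 reads after the U7 ASO. Apart from the LTR12C locus, every other locus listed between the HY5 and HY4 leading loci also had no control reads. A control library had reads at only 96631 to 120658 of the 433837 listed loci, so a 0 there is common. The Y RNA loci on either side of the LTR12C locus, HY5_2406652 and HY4_dup2_2406711, were 19 and 40 running numbers away from it. HY5_2406652 held 10 to 20 reads in the controls and 2 to 14 in the U7 ASO libraries. HY4_dup2_2406711 held 4 to 8 and then 0 to 2. The 13 other loci listed from the HY5 to the HY1 leading locus, those 3 included, had at most 31 reads in a library, so the reads of HY3 and HY1 stood out from their surroundings.

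**Figure D4:**
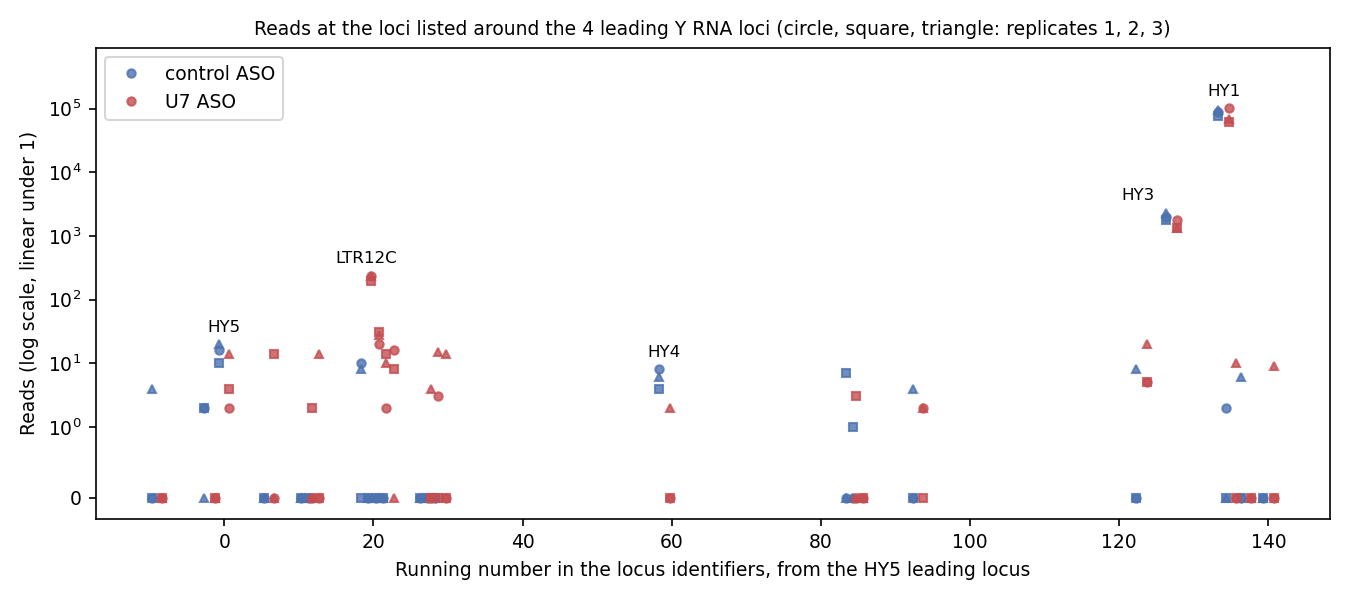
Reads in each library at the loci listed around the 4 leading Y RNA loci are plotted on a log axis (linear under 1) against the running number counted from the HY5 leading locus, with controls in blue shifted slightly left and U7 ASO libraries in red shifted slightly right. HY1 and HY3 lie far above their neighbours in both groups, and the LTR12C locus is the one with 195 to 238 reads in U7 ASO libraries and at most 10 in controls.

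Other short RNAs made by RNA polymerase III were set beside the Y RNAs, as 7SK, 7SLRNA, BC200, 5S, U6 and the tRNA names. Of these 61 names 36 were tested, 1 rose and 0 fell, beside 1.52% raised and 1.03% lowered among all names. Their median log2 fold change was 0.54, against −0.01 over all tested names, while HY1 and HY3 were at −0.47 and −0.73. Most of the 36 tested names were tRNA names, so these weighed most in the median. Many of them had low counts, such as tRNA-Ala-GCG at means of 5.36 CPM in controls and 8.96 CPM with the U7 ASO. The names other than tRNAs were spread: 7SK −0.22, 7SLRNA 0.07, U6 0.08, BC200 −0.63 and 5S 0.65. Without control replicate 1 the median of the list was 0.32. The difference between the Y RNAs and this list was not tested. The 1 raised name was tRNA-Glu-GAG_ (log2 fold change 1.76, adjusted p = 0.0236), at 9.64 to 18.2 CPM in the controls and 33.3 to 69.6 CPM in the U7 ASO libraries. Leaving out any 1 of control replicate 1 and U7 ASO replicates 1 and 3 ended this call.

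7SK, the RNA that holds the transcription elongation factor P-TEFb inactive, was the one name of the list with more reads than HY1. It was at 215061, 211868 and 206192 CPM in the controls and at 162006, 187603 and 195420 CPM with the U7 ASO (log2 fold change −0.22, SE 0.09, adjusted p = 0.263). All U7 ASO libraries were below the controls, as for 10.2% of all tested names. U7 ASO replicate 1 was the lowest of them for 7SK, where for HY1 it was the highest. 7SLRNA, the RNA of the signal recognition particle, was at a log2 fold change of 0.07, U6, a spliceosomal RNA, at 0.08, and BC200, a primate RNA related to Alu elements, at −0.63, and none of the 3 passed. 5S, the small ribosomal RNA, was at 188, 119 and 163 CPM in the controls and at 413, 153 and 171 CPM with the U7 ASO (adjusted p = 0.349), so U7 ASO replicate 1 was also the highest library for 5S.

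**Figure D5:**
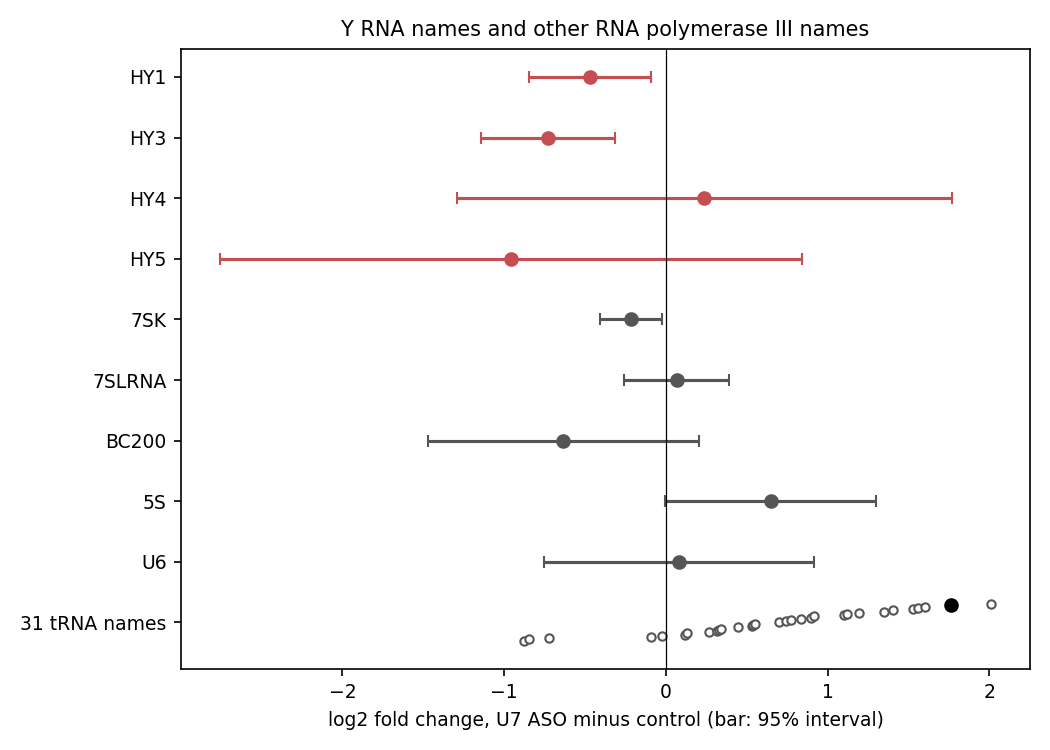
The log2 fold changes of the 4 Y RNA names (red) and of 7SK, 7SLRNA, BC200, 5S and U6 (grey) are plotted with 95% intervals, and those of the 31 tested tRNA names as points without intervals in the lowest row, spread vertically for visibility, with the raised name filled. HY3 at −0.73 and HY1 at −0.47 lie left of 0 with intervals that do not reach it, as does 7SK at −0.22, before adjustment for the number of names tested.

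The repeat names with the most similar pattern were found by the correlation of log2 CPM over the 6 libraries. The search covered the 1128 names whose log2 CPM averaged 5 or more, with the Y RNA names themselves left out. For HY3 the closest was LTR2C (r = 0.998), then LTR6A (r = 0.99) and (CCAT)n (r = 0.98). For HY1 they were (CCCCTCT)n (r = 0.98), MLT1F1 (r = 0.97) and (TCAT)n (r = 0.97). HY4 was closest to LTR40a (r = 0.97), Tigger3a and L1MC4, and HY5 to LTR7C (r = 0.98), (GA)n and (TTGG)n. These correlations are descriptions over 6 libraries that share their scaling, and the highest of 1128 values is high by selection.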

How the data were processed

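The deposited tables hold raw read counts for repeat loci, 1 table per library, and per the submitters' processing notes the authors used STAR 2.5.3a, featureCounts 1.5.0-p1 of Subread and FastQC 0.11.5, with GRCh38. Per the labels' protocols, ribosomal RNA was depleted from total RNA before library construction. Not given in the sources used here are the strand setting, the repeat annotation, the treatment of reads with several placements and the counting of pairs. Of the Y RNA counts above 0, 72.7% were even, so a value is called reads and not fragments. Reads of near-identical copies could be split or dropped, and a transcript on the opposite strand is not separated.

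Counts were tested with edgeR 4.0.16 in R 4.3.3 (quasi-likelihood, two-sided, TMM, filterByExpr with a minimum count of 10 and a minimum total of 15, Benjamini-Hochberg over all features, threshold 0.05) at 3 levels: sums over repeat names, the same table with each Y RNA name split into leading locus and other copies, and single loci. SEs were derived from the F statistic. CPM are edgeR's values after TMM scaling. Ratios and shares were compared by exact permutation over libraries. Alternatives were DESeq2 1.42.0, limma-voom (limma 3.58.1), other scalings, no count filter, a replicate block and leaving out each library. A table without ribosomal RNA names was added after the data were seen. The edgeR code was tested on simulated counts. Sequences and coordinates came from GENCODE 29 and RefSeq (GRCh38), identity from global alignment in Biopython 1.88 (match 1, mismatch −1, gap opening −2, gap extension −0.5), and folds from RNAfold 2.7.2. The names reported were the 4 Y RNAs, their leading loci, every Y RNA locus past the count filter, 7SK, 7SLRNA, BC200, 5S, U6 and any called tRNA name. Also reported were, for each Y RNA, the 3 names outside the Y RNAs most correlated with it. Y RNA loci under the count filter, the LTR12C locus and the loci named beside it were named after their values were seen. The members and lists were chosen with earlier results of these data known. The sequence and position of the HY3 gene are not reported here. Counts of cell-type marker genes were not used here.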

Additional observations from a re-analysis of the deposited data

How the results depend on the processing

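Of the 15 alternatives, HY1 kept its direction in all and passed in 4, and HY3 kept its direction in all and passed in 6. For the names, HY1 passed at log2 fold changes of −0.46 without a count filter, −0.56 with limma-voom and −0.54 with the replicate block, and HY3 at −0.74 with upper-quartile scaling, −0.72 without a count filter and with DESeq2, −0.78 with limma-voom and −0.76 with the replicate block. For the leading loci these values were −0.46, −0.55 and −0.54 for HY1 and −0.77, −0.75, −0.75, −0.81 and −0.80 for HY3. Leaving out 1 library gave −0.84 to −0.29 for HY1, −0.98 to −0.57 for HY3, −0.20 to 0.71 for HY4 (negative without U7 ASO replicate 2), −0.83 to −0.29 and −1.03 to −0.59 for the leading loci of HY1 and HY3, −0.017 to 0.53 for HY3_dup37_292102, and 0.32 to 0.71 for the median of the RNA polymerase III list. The log2 ratio of HY3 to HY5 differed by −0.13 to 0.85. With leading loci alone no ratio to HY4 was formed, since libraries held 0 reads. Among all names, the number lowered ran from 8 to 76 when 1 library was left out, against 23, and was 44 without a count filter, 38 with DESeq2 and 41 with limma-voom. The replicate numbers did not pair the libraries: deviations of same-numbered libraries correlated at 0.11, −0.03 and 0.12. With the replicate block 59 names were raised and 74 lowered, against 34 and 23. Without a count filter, the fit of single loci gave an SE of 0.01 for the HY1 leading locus, far below the spread between libraries, and no call was read from it. Reads at HY4 and HY5, under 40 a library, limit both names. The causes of these changes were not tested.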
